A study of Homo sapiens with 3 samples.

Results

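The genes with the symbols ZNF500 to ZNF899 were examined in MIAPaCa-2 cells, a long-established line derived from a human carcinoma of the pancreas. Members were taken by symbol alone, as every gene of the deposited table named ZNF followed by 3 digits of which the first is 5, 6, 7 or 8. This gave 199 of the 14949 listed genes. The rule itself uses the symbol and no measured value. The annotation held 243 such symbols, and the other 44 were not analysed here. 3 RNA sequencing libraries were compared, with 1 library in each group. The sh-CTL library came from untreated cells with a control short hairpin. The sh-METTL3 library (METTL3-KD) came from untreated cells with a hairpin against METTL3, whose product carries the methyltransferase activity that makes N6-methyladenosine in mRNA. The sh-CTL + PLK1i library came from the control hairpin line after 24 h in 80 nM NMS-P937, an inhibitor of the mitotic kinase PLK1. All 3 libraries share the MIAPaCa-2 background, and both comparisons share the single sh-CTL library. The METTL3-KD line was a gift to the study, and the sources used here do not say whether either hairpin line was 1 clone.

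Numbered ZNF genes mostly encode proteins of the C2H2 type, in which short fingers, each folded around a zinc ion, read DNA side by side. Many also carry a KRAB box at the amino end. This box recruits the scaffold TRIM28 and with it the histone methyltransferase SETDB1, HP1 proteins and the NuRD complex, which together silence the bound site. KRAB zinc finger proteins are best known for silencing transposable elements. They arose by repeated tandem duplication, so that many lie in dense clusters on chromosome 19, and each is usually expressed at a low level. Members without a KRAB box include chromatin scaffolds and cytoplasmic proteins that act on ribosomes.

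The repeated build of these genes is shown for 5 members of chromosome 19 whose changes are described below. Each line gives the first finger of the GRCh37 coding sequence that is followed by the usual linker, 81 bases long, with the 18 bases of the linker in capitals. ZNF681 was read from chr19:23927254-23927334, ZNF675 from chr19:23836883-23836963, ZNF708 from chr19:21477180-21477260 and ZNF737 from chr19:20728406-20728486, all on the minus strand. ZNF525 was read from chr19:53884565-53884645 on the plus strand.
ZNF681: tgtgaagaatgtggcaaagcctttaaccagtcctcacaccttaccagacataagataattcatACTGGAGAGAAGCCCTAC
ZNF675: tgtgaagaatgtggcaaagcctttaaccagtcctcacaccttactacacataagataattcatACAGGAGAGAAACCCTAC
ZNF708: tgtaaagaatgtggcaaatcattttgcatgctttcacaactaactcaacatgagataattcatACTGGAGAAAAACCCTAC
ZNF737: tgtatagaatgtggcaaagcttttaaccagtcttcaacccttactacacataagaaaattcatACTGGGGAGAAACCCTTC
ZNF525: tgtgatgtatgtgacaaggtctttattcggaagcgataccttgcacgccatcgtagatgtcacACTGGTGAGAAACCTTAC
The units of ZNF681 and ZNF675, which lie on the short arm, were identical at 77 of 81 bases. Those of ZNF708 and ZNF525, on opposite arms, were identical at 46 of 81 bases. The linker itself was shared at 15 or 16 of 18 bases in every pair of the 5 genes. Since the units were chosen by the residues of the linker, its likeness follows in large part from that choice. Likeness between genes can bear on the counting of reads. A unique share was therefore computed for each member. It is the percent of 75-base windows of 1 transcript, the canonical or else the longest, that occur in no other gene. It was 100% in 101 members and at least 95% in 157, and it was below 50% in 6. In the 5 genes shown it was high, from 97.0% in ZNF525 to 99.9% in ZNF681. In ZNF709, ZNF564 and ZNF625, which were among the 6, 89.0%, 82.3% and 76.4% of windows occurred in 1 other annotated gene each.

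Sets of 3 values below are always given in the order sh-CTL, sh-METTL3, sh-CTL + PLK1i. The depth was 37449329, 46944898 and 47727520 reads in listed genes. METTL3 itself had normalized counts of 3939, 1651 and 3888, so the library labelled sh-METTL3 was the lowest. PLK1 had 8058, 5226 and 8515. The epithelial keratins KRT8, KRT18 and KRT19 and the mesenchymal gene VIM were listed in all libraries. Their changes in sh-METTL3 were 0.26, 0.27, 0.43 and -0.40, and under the inhibitor -0.10, -0.09, -0.06 and 0.0098. The ductal gene SOX9 had -0.18 and -0.23. EPCAM, CDH1, the mesenchymal gene CDH2, the ductal gene CFTR, PTPRC, CD3E, DCN and PDGFRB were not among the listed genes. Nor were the marker genes of acinar and endothelial cells. The macrophage marker CD68 was listed, with changes of 0.89 in sh-METTL3 and 0.59 under the inhibitor, and so was the fibroblast gene COL1A1, with -2.63 and -0.25. Their part in the results was not tested. With 1 library a group no test was possible. Every change below is the difference between 2 libraries in log2(normalized count + 1), where the added 1 shrinks the differences of genes at low counts. Its 95% interval is an exact Clopper-Pearson interval of the ratio of reads, scaled by the size factors, and covers counting error only. The interval leaves out the added 1, and so do folds printed beside a change. The 2-fold and 1.5-fold limits were applied to the change itself. In bulk RNA, fewer cells that express a gene and less RNA per cell cannot be told apart.

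The members were expressed at a low level. Their median normalized count, as the mean of the 3 libraries, was 427, against 906 for all listed genes. It ranged from 19.9 for ZNF608 to 5476 for ZNF638. No member had 3 reads or fewer in any library, and the lowest read number was 6. These levels describe listed members only, since every listed gene reached at least 0.503 reads per 1000000 in its highest library. The other 44 annotated symbols have no part in them. Summed over members and given as CPM (reads per 1000000 reads in listed genes), the level was 3090 (counting interval 3072 to 3108), 3225 (3209 to 3242) and 3065 (3049 to 3080). All 199 members thus held about the same share of the RNA in the 3 libraries, at 0.309%, 0.323% and 0.306%.

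The 10 most abundant members were mostly not of the KRAB type. ZNF638 (ENSG00000075292, GRCh37 chr2:71503691-71662199, plus strand), which is known to silence unintegrated retroviral DNA together with the HUSH complex, had normalized counts of 5208, 5675 and 5546. ZNF664 followed with 4796, 4891 and 4755. ZNF609, which has been linked to the cohesin loader NIPBL, had 3763, 3567 and 3787. ZNF655 on chromosome 7 had 3986, 3116 and 3900, so that it was the one of these 4 with a clearly lower count in sh-METTL3, by -0.36 (-0.42 to -0.29). ZNF644, a partner of the histone methyltransferases EHMT1 and EHMT2, had 3109, 3059 and 3346. ZNF770, ZNF629, ZNF768, ZNF706 and ZNF598 came next, with means from 2899 down to 2369. Of the 10, only ZNF655 had a KRAB box, against 133 of the 198 members with a readable coding frame. Per kb of transcript the order was different. On the scale of normalized counts per kb in sh-CTL, ZNF593 led with 1431, then came ZNF511 with 1134 and ZNF664 with 1112, and ZNF608 was lowest with 1.90. The median over members was 105 on this scale.

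METTL3 knockdown was compared with the control hairpin to ask which members differed when METTL3 was low. 3 members were at least 2-fold higher in sh-METTL3 and 3 were at least 2-fold lower, out of 199. The higher ones include ZNF608, which is listed only through sh-METTL3, as described below. Over all listed genes 3.42% were at least 2-fold higher and 2.94% at least 2-fold lower, so that large differences were not more common among members than elsewhere. The 6 members with large differences all lay below the median level of the members. At a 1.5-fold limit, 15 members were higher, beside 7.76% of all genes, and 8 were lower, beside 6.7% of all genes.

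The lowest value relative to sh-CTL belonged to ZNF525 (ENSG00000203326, chr19:53868946-53895470, plus strand), a KRAB gene of the long arm. Its read numbers were 71, 10 and 123, which correspond to normalized counts of 82.8, 9.27 and 113. The METTL3-KD library was thus far below both others. The change was -3.03 (-4.28 to -2.20), an 8.93-fold lower count. ZNF827 (ENSG00000151612, chr4:146678779-146859975, minus strand), known for recruiting the NuRD complex to telomeres, had 292, 75 and 253 reads and normalized counts of 341, 69.5 and 233. The change in sh-METTL3 was -2.28 (-2.68 to -1.92), or 4.90-fold lower. ZNF625 (chr19:12252905-12267549, minus strand) had 81, 34 and 120 reads, with a change of -1.55 (-2.21 to -0.99). Of its transcript windows, 76.4% also occur in the readthrough gene ZNF625-ZNF20, so that its reads could be split between both, and its value is uncertain.

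On the other side, ZNF620 (ENSG00000177842, chr3:40518622-40560227, plus strand), a KRAB gene, had read numbers of 29, 87 and 69. Its change in sh-METTL3 was 1.23 (0.63 to 1.91), a 2.38-fold higher count. ZNF608 and ZNF837 also passed the 2-fold limit. Both had a mean normalized count below 50, outside the range in which genes were to be named, and they were chosen after their values were seen. ZNF608 had 10, 46 and 6 reads, with a change of 1.79 (0.86 to 3.02). Only in sh-METTL3 did ZNF608 reach a CPM of 0.503, which every listed gene reached in its highest library. It is thus listed only through the library in which it is high, and its place among the higher members rests on that. ZNF837 had 22, 70 and 28 reads, with a change of 1.31 (0.63 to 2.10). Their intervals are wide, since few reads stand behind them.

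**Figure D1:**
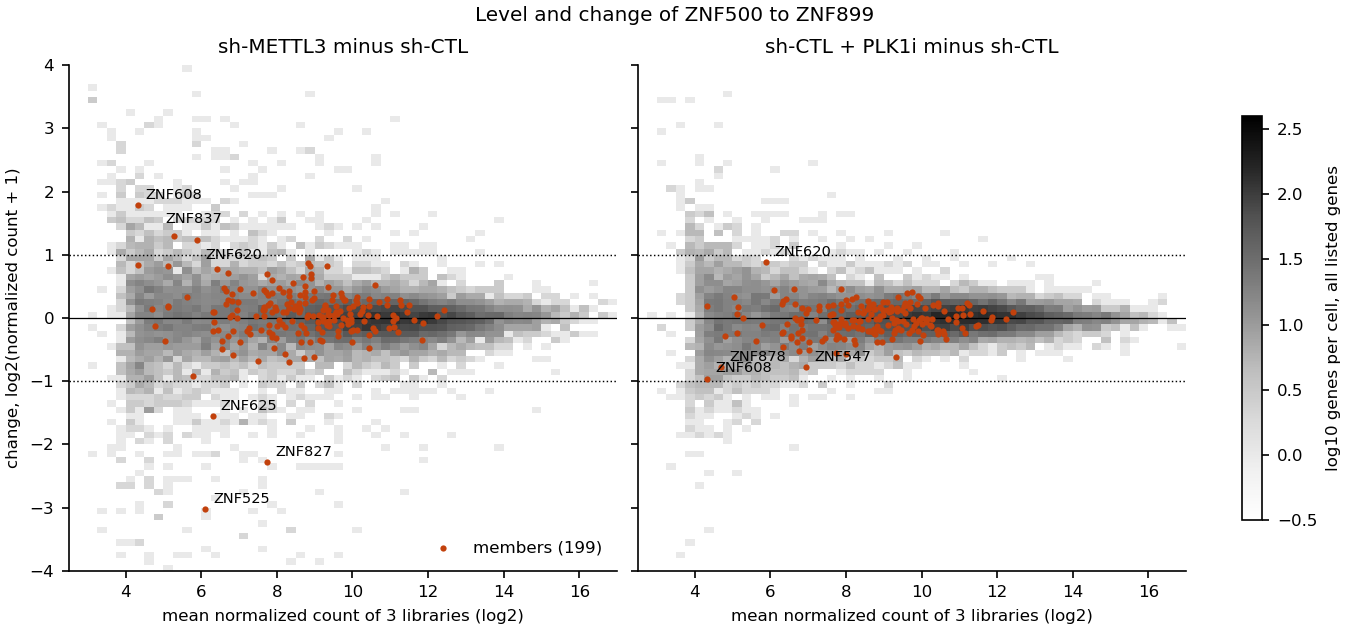
Change of each member (orange points) against its mean normalized count over the 3 libraries, on log2 axes, in sh-METTL3 (left) and sh-CTL + PLK1i (right), over the density of all listed genes (grey, log10 of genes per cell, changes beyond 4 not drawn). Dotted lines mark a 2-fold difference; 6 members lie beyond them on the left and 0 on the right.

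Among members with a mean of at least 50, ZNF519 on chromosome 18 was the next highest in sh-METTL3, with normalized counts of 380, 693 and 291 and a change of 0.87 (0.68 to 1.06). ZNF618, a partner of the methylcytosine reader UHRF2, had 562, 993 and 366, with a change of 0.82 (0.66 to 0.98). Both counts were highest in METTL3-KD and lowest under the inhibitor. ZNF681, ZNF554 and ZNF737, all on the short arm of chromosome 19, had changes of 0.82, 0.77 and 0.70. ZNF784 (0.72) and ZNF678 (0.70) completed the 8 largest. ZNF681 had 375, 664 and 373, so that it was higher in METTL3-KD and close to equal in the other two libraries.

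The lower members with a mean of at least 50 were, after the 3 above, ZNF860 (-0.92, -1.57 to -0.33), ZNF577 (-0.69), ZNF853 (-0.68), ZNF783 (-0.64) and ZNF649 (-0.62). ZNF577 and ZNF649 are neighbours on the minus strand of chromosome 19, at 52308069 to 52394203 and 52392488 to 52408293, and their annotated ends overlap. ZNF577 had normalized counts of 381, 236 and 343, and ZNF649 had 559, 362 and 608. ZNF853 and ZNF783 lie on chromosome 7, where the median over the other listed genes in METTL3-KD was -0.24. In all 8 genes the METTL3-KD library was the lowest of the 3.

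**Figure D2:**
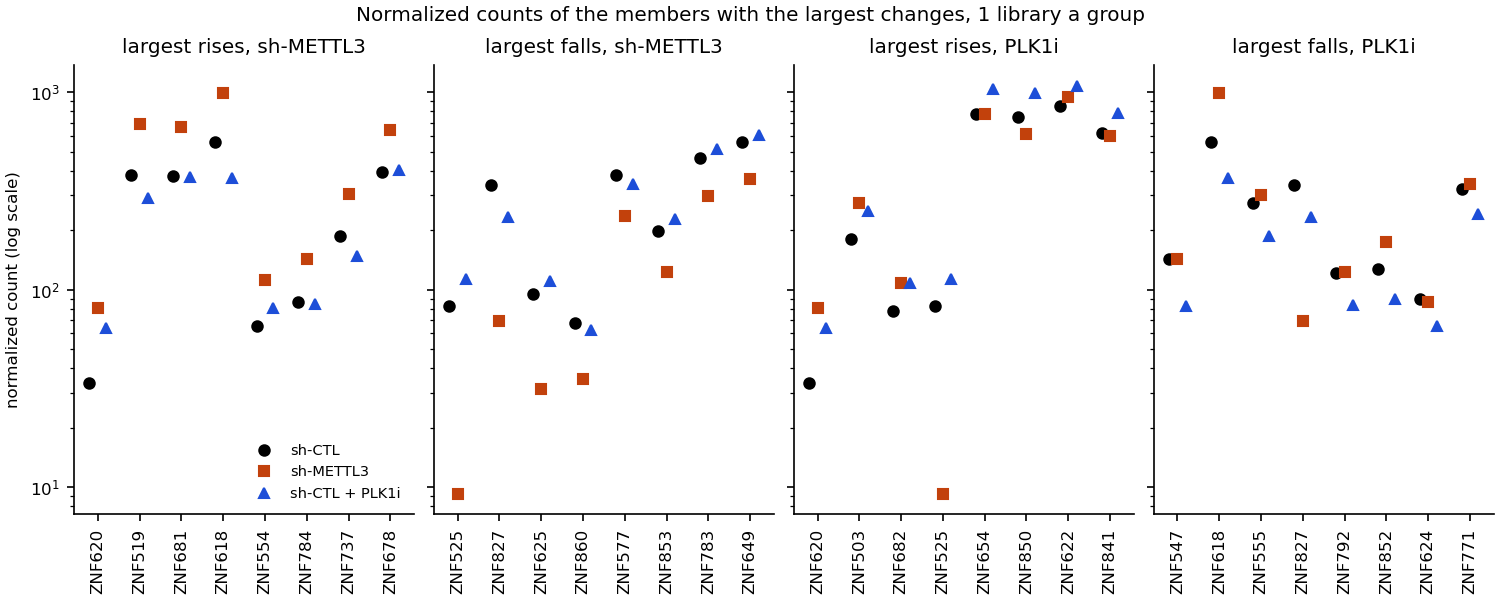
Normalized counts (log axis) in the 3 libraries for the 8 highest and the 8 lowest changes per comparison, taken from members with a mean of at least 50, where each symbol is 1 library. ZNF525 stands at 9.27 in sh-METTL3 against 82.8 and 113 in the others, and ZNF618 is highest in sh-METTL3 and lowest in sh-CTL + PLK1i.

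Most members differed little, and small differences leaned upward in sh-METTL3. The median change was 0.09, against 0.0013 for all listed genes, and the quartiles of the members lay at -0.14 and 0.28. In sh-METTL3, 122 of 199 members (61.3%) were above sh-CTL, beside 50.2% of all genes, and 77 were below, beside 49.8% of all genes. The counting interval lay wholly above 0 in 64 members, beside 27.1% of all genes, and wholly below 0 in 37, beside 28.2% of all genes. Since such intervals narrow with depth and leave out variation between cultures, these counts describe 2 libraries and not 2 conditions.

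The comparison was repeated at matched level, since the members were less abundant than other genes. Members with a mean of 200 to 500 had a median change of 0.14 (66 genes), against 0.03 in the 1642 other genes at this level. From 500 to 1000 the median was 0.05 in 46 members against -0.02 in other genes. At 1000 and over it was 0.04 in 40 members against -0.02. From 50 to 200, however, it was 0.01 in 37 members against 0.08, so the order was the opposite there. Below 50 it was 0.26 in 10 members against 0.08. The members were therefore above other genes of like level in 4 of the 5 bins. The bin below 50 holds ZNF608, which is listed only through sh-METTL3.

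**Figure D3:**
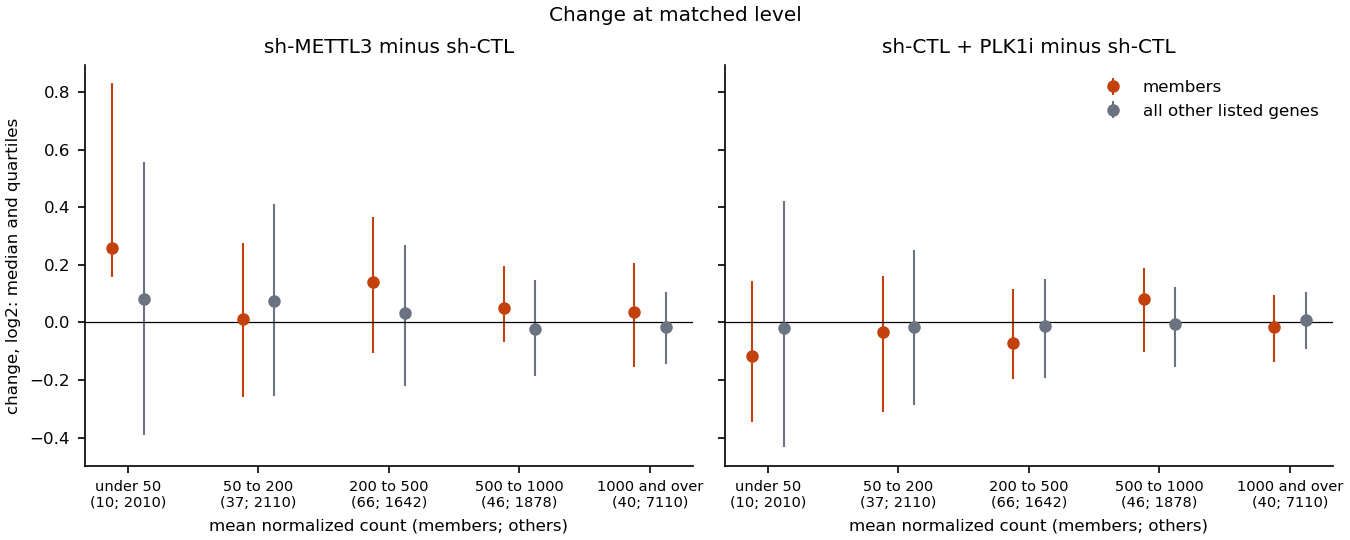
Median change with quartiles (log2) of members (orange) and all other listed genes (grey) in 5 bins of mean normalized count, in sh-METTL3 (left) and sh-CTL + PLK1i (right), with the number of genes of each kind under each bin. The quartiles of both kinds overlap in every bin; in the bin from 200 to 500 the members lie at 0.14 and -0.07 and the other genes at 0.03 and -0.01, and from 500 to 1000 the members lie at 0.05 and 0.08 and the other genes at -0.02 and -0.01.

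The members lay on 17 chromosomes, with 105 on chromosome 19, 15 on chromosome 16 and 13 on chromosome 7. On the short arm of chromosome 19, 27 of 29 members were higher in sh-METTL3 than in sh-CTL, with a median change of 0.29. The exceptions were ZNF625, described above, and ZNF653 (-0.21, -0.56 to 0.14). On the long arm the 76 members had a median of 0.02, and 42 were above 0. Summed over the members of the short arm, the CPM was 248 (243 to 253), 309 (304 to 314) and 235 (230 to 239). For those of the long arm it was 861, 866 and 865.

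The short arm as a whole moved the same way. In METTL3-KD the median over its 467 listed genes that are no members was 0.18, and 77.9% of them were above 0. The 33 other numbered ZNF genes of the short arm had a median of 0.31, and 32 of them were above 0. On the long arm the 510 other genes had a median of -0.02. Whether the shift of the whole arm has a part in that of its members was not tested. Chromosome 7 went the other way. Its 13 members had a median of -0.05, with 3 above 0, while its 720 other genes had a median of -0.24. On the chromosomes apart from 7 and 19, the 81 members had a median of 0.10, with 50 above 0, against 0.0055 in other genes. An upward lean of the members was thus also seen on those chromosomes. On the long arm the members lay near 0 (0.02, with 42 of 76 above it), and on chromosome 7 they lay below it.

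8 clusters were found, each a run of at least 5 members whose starts lie at most 1000000 bases apart. Cluster C5 on the short arm (chr19:19896648-21571384) differed most in sh-METTL3. Its 6 members ZNF506, ZNF682, ZNF714, ZNF708, ZNF737 and ZNF738 were all higher, with a median of 0.48, and the 9 other listed genes inside it had a median of 0.44. ZNF708 (named after its value was seen) had normalized counts of 366, 572 and 313, with a change of 0.64 (0.44 to 0.84). ZNF737 had 187, 304 and 147, with a change of 0.70 (0.43 to 0.99). The short-arm clusters C3 (chr19:8916846-9903856) and C4 (chr19:11594242-12744654) had medians of 0.22 over 6 members and 0.28 over 11. Beyond C5, towards the centromere, ZNF675 and ZNF681 had changes of 0.63 and 0.82. ZNF675 is known to bind TRAF6 and to damp its signalling.

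Clusters of the long arm had medians nearer 0 or below it. In C6 (chr19:36673178-38307940) the 17 members had a median of -0.04. In C7 (chr19:52308069-53965116), which holds ZNF525, ZNF577 and ZNF649, the 21 members had a median of -0.12, with 7 above 0, and the 18 other listed genes inside it had 0.02, with 9 above 0. In C8 (chr19:55987984-58943103), next to the end of the chromosome, the 30 members had 0.06, with 21 above 0, and the 48 other genes had -0.02, with 21 above 0. Cluster C2 on chromosome 16 (chr16:30418735-31806190) had a median of 0.17 in 10 members, of which 9 were above 0, against 0.01 in the 38 other genes inside it. Cluster C1 on chromosome 7 (chr7:148766733-150095718) had -0.04 in both its 6 members and the 13 others.

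**Figure D4:**
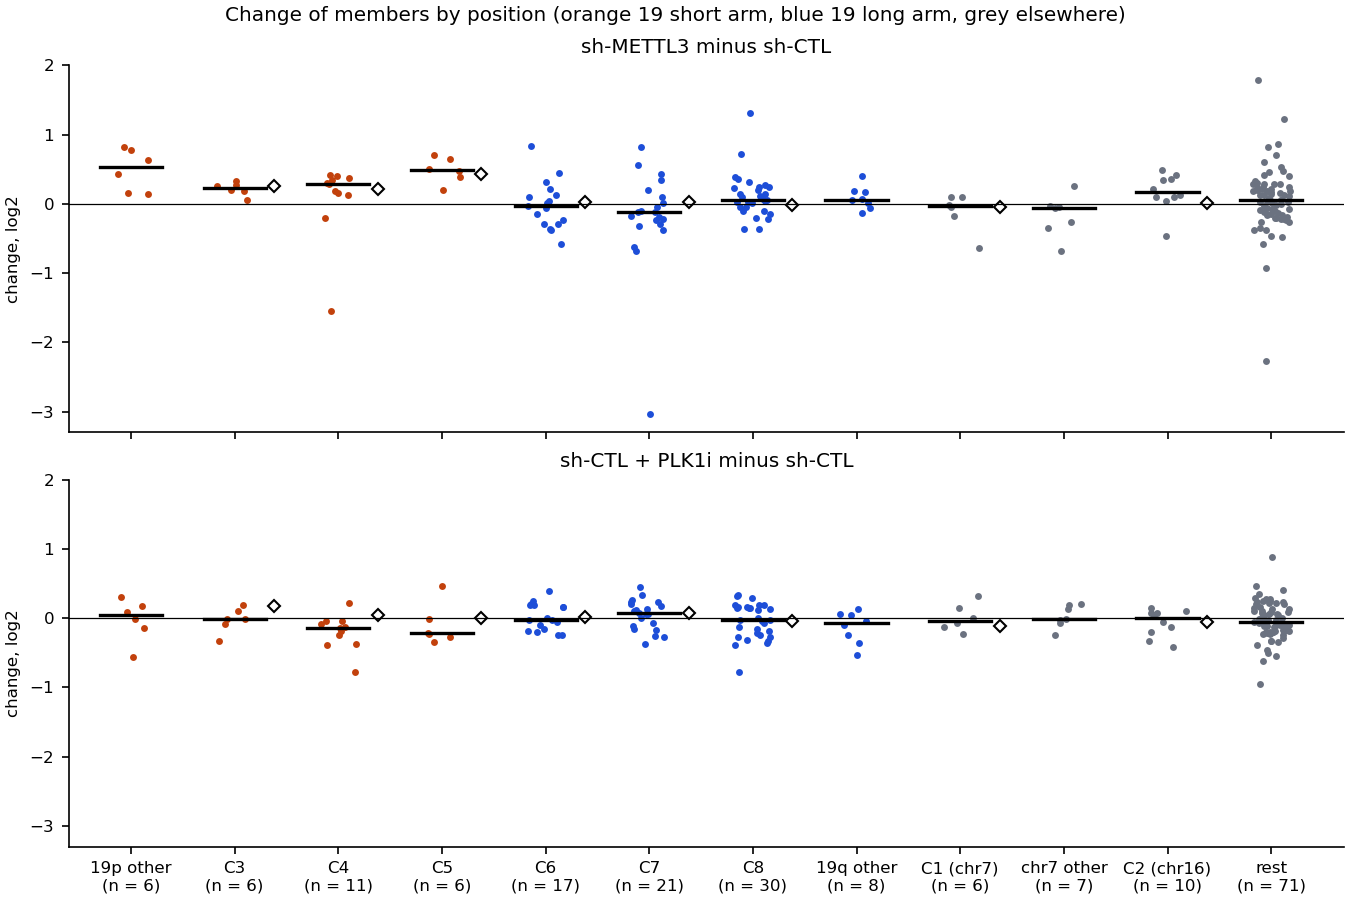
Change of each member (points, log2) by position, in sh-METTL3 (top) and sh-CTL + PLK1i (bottom), with the median of members as a line and the median of the other listed genes inside a cluster as an open diamond. In sh-METTL3 the short-arm clusters C3, C4 and C5 (orange) have medians of 0.22, 0.28 and 0.48, while those of clusters C6, C7 and C8 on the long arm lie between -0.12 and 0.06.

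Promoters are shown for 2 members of the short arm that were higher in sh-METTL3 and for ZNF525, the member with the largest difference. Each is the RefSeq window on GRCh38.p14 from 250 bases before to 50 bases after the start. The windows are chr19:23758842-23759141 (minus strand) for ZNF681, chr19:20565732-20566031 (minus strand) for ZNF737 and chr19:53365455-53365754 (plus strand) for ZNF525. Capitals mark matches, on either strand, to a GC box (GGGCGG) or to an ETS-type motif (CCGGAAG), which may adjoin or overlap.
ZNF681: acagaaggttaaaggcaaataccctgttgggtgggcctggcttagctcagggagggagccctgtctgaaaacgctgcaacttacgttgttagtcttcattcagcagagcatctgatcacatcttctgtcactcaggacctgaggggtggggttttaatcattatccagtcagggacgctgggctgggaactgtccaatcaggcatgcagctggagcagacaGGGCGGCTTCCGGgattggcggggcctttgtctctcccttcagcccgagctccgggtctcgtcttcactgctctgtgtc
ZNF737: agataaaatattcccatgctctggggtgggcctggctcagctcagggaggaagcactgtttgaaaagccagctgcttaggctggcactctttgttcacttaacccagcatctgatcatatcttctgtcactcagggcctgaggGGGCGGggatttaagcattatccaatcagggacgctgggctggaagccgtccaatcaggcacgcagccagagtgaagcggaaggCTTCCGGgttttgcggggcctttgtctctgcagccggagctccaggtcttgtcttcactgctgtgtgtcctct
ZNF525: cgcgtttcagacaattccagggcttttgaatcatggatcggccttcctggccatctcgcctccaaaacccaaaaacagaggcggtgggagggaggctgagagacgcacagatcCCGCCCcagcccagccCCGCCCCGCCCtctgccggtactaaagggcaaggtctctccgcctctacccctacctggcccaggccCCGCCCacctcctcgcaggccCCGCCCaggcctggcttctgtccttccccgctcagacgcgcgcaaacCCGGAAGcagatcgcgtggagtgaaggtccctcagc
All 3 windows held 1 ETS-type match. ZNF681 and ZNF737 held 1 GC box each and ZNF525 held 5. ZNF681 and ZNF737 had 9 and 8 CG dinucleotides, and ZNF525 had 21. Promoters were matched by symbol for 172 of the 199 members. The ETS-type letters stood in 40.7% of these, against 19.9% of the 10379 promoters of listed genes and 10.7% of all 27305. The promoters of 179 other numbered ZNF genes held them in 43.6%. GC boxes stood in 66.9% of member promoters and 71.0% of those of listed genes. TATAAA stood in 3.49% and 5.20%, and AAGATGG, a YY1-type motif, in 8.14% and 7.65%. The 70 members with the ETS-type letters had median changes of 0.06 in METTL3-KD and 0.06 under the inhibitor, and the 102 without had 0.09 and -0.07. A match is a string of letters and not a measured binding site.

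PLK1 inhibition for 24 h was compared with the untreated control hairpin line to ask which members differed under the inhibitor. 0 of 199 members were at least 2-fold higher and 0 were at least 2-fold lower, beside 1.39% and 1.13% of all genes. At 1.5-fold, 1 member was higher, beside 3.98% of all genes, and 4 were lower, beside 4.01% of all genes. These shares are not matched on level. Of the 208 higher and 169 lower genes at 2-fold, 150 and 138 were non-members with a mean below 50, where only 10 members lay. With a mean of at least 50, 58 of 12929 genes were 2-fold higher and 31 lower, against 0 and 0 of 189 members. At 1.5-fold the counts there were 235 and 245 of all genes and 1 and 2 of the members. The median change was -0.03, against 0.0024 for all genes, with 85 members (42.7%) above 0, beside 50.5% of all genes, and 114 below 0, beside 49.4% of all genes. The counting interval lay wholly above 0 in 35 members, beside 23.1% of all genes, and wholly below 0 in 42, beside 22.8%. At matched level the order of members and other genes was not the same in every bin. From 500 to 1000 the members had a median of 0.08, with 25 of 46 above 0, against -0.01 in other genes. From 200 to 500 they had -0.07, with 23 of 66 above 0, against -0.01. The other bins gave -0.12 against -0.02 below 50, -0.03 against -0.02 from 50 to 200, and -0.02 against 0.01 at 1000 and over.

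The highest value under the inhibitor was that of ZNF620, at 0.89 (0.26 to 1.59). In sh-METTL3 it was the highest among members with a mean of at least 50. ZNF620 was thus lowest in the shared sh-CTL library, at a normalized count of 33.8. ZNF503, ZNF682, ZNF525, ZNF654, ZNF850, ZNF622 and ZNF841 followed, with changes from 0.46 down to 0.34. ZNF503 is a corepressor of the same small family as ZNF703. Of these, ZNF622 had the narrowest interval, at 0.35 (0.21 to 0.48), with normalized counts of 848, 944 and 1079.

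The lowest changes under the inhibitor, among members with a mean of at least 50, were those of ZNF547 (-0.77, -1.19 to -0.38) and ZNF618 (-0.62, -0.81 to -0.42). ZNF547, a KRAB gene near the end of chromosome 19, had normalized counts of 142, 143 and 82.9, so that the treated library stood apart from both others. ZNF555 (-0.56), ZNF827 (-0.55), ZNF792 (-0.53), ZNF852 (-0.50), ZNF624 (-0.45) and ZNF771 (-0.41) followed. Of these 8, only ZNF624 had an interval that included 0 (-0.94 to 0.03). ZNF827 was lower in both comparisons, at 341 in the shared sh-CTL library against 69.5 in METTL3-KD and 233 under the inhibitor.

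On the short arm of chromosome 19, 7 of 29 members were above sh-CTL under the inhibitor, with a median of -0.08. With members of a unique share of at least 95% alone, a limit set after seeing the data, this median was -0.03. The other numbered ZNF genes of the arm had 0.03, with 21 of 33 above 0. Over all 467 listed genes of the arm that are no members it was -0.02, with 46.5% above 0. In cluster C4, 1 of 11 members was above 0 (median -0.14), against 10 of 17 other genes inside it (0.05). In cluster C5 the median was -0.22 over 6 members, with 1 above 0. The 9 other listed genes inside it had 0.0008, with 5 above 0. Part of the members on the short arm share sequence with other genes. Across all chromosomes, the 42 members with a unique share below 95% had a median of -0.15, with 2 intervals wholly above and 13 wholly below 0, beside 23.1% and 22.8% of all genes. The 157 members with a share of at least 95% had -0.02, with 33 above and 29 below. In sh-METTL3 the same 2 sets had medians of 0.04 and 0.09.

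A KRAB box was found in 133 of 198 coding frames, and the number of fingers had a median of 10 and a maximum of 31, in ZNF646. In METTL3-KD the median was 0.09 for members with a KRAB box and 0.06 for those without. Under the inhibitor the medians were -0.02 and -0.04. The 2 sets differed in level, at median normalized counts of 355 with the box and 669 without. Among KRAB members, those on the short arm of chromosome 19 had 0.31 in sh-METTL3 (28 genes), those on the long arm -0.04 (62 genes) and those elsewhere 0.05 (43 genes). Of the KRAB members of the long arm, 30 of 62 were above 0. The 15 members of chromosome 19 without a KRAB box had 0.18, with 12 above 0, and the 50 without it on other chromosomes had 0.05, with 29 above 0. By number of fingers the medians in sh-METTL3 were 0.11 for 0 to 4, 0.10 for 5 to 9, 0.05 for 10 to 14 and 0.06 for 15 or more.

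Members with known roles outside DNA binding were examined as a group. The 4 that act on ribosomes or RNA had a median of -0.02 in sh-METTL3 and 0.23 under the inhibitor. ZNF598, the ubiquitin ligase that senses collided ribosomes, had normalized counts of 2338, 2002 and 2768. It was lowest in METTL3-KD (-0.22, -0.31 to -0.14) and highest under the inhibitor (0.24, 0.16 to 0.33). ZNF593, which takes part in export of the large ribosomal subunit, had 913, 854 and 1061, with 0.22 (0.09 to 0.35) under the inhibitor. ZNF622, which acts late in maturation of the same subunit, was described above. ZNF830, a spliceosome protein, had 667, 692 and 646, and both of its intervals included 0.

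Members known as chromatin partners went in both directions. ZNF532, ZNF592 and ZNF687 are parts of 1 complex with ZMYND8. In sh-METTL3 ZNF532 was lower (-0.47, -0.59 to -0.35), ZNF687 was slightly lower (-0.16, -0.27 to -0.06) and ZNF592 was higher (0.21, 0.12 to 0.30). Under the inhibitor ZNF532 was higher (0.24, 0.13 to 0.34) and ZNF687 lower (-0.21, -0.31 to -0.10). ZNF592 had -0.07 under the inhibitor, with an interval that included 0 (-0.17 to 0.03). ZNF516, which binds corepressors, had 245, 227 and 200, with -0.29 (-0.57 to -0.01) under the inhibitor. ZNF638 was higher in both, by 0.12 and 0.09. ZNF618 and ZNF827 had the largest differences of the group.

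Among members tied to development or disease, ZNF808 is needed for formation of the human pancreas and silences transposable elements there. It had normalized counts of 406, 377 and 423, and its intervals included 0 in both comparisons (-0.32 to 0.11 and -0.15 to 0.26). ZNF703, a breast cancer oncogene, was lower in both, by -0.57 (-0.82 to -0.34) in sh-METTL3 and -0.34 (-0.58 to -0.11) under the inhibitor. ZNF746, a repressor that parkin removes, was lower in sh-METTL3 by -0.18 (-0.31 to -0.06). ZNF668, linked to DNA repair, and ZNF768, linked to RAS signalling, were higher, by 0.36 (0.15 to 0.57) and 0.21 (0.13 to 0.29). ZNF652, ZNF507 and ZNF609 had changes of -0.13, -0.14 and -0.08. Of the repeat-binding members, ZNF649 had the lowest change in sh-METTL3, at -0.62 (-0.82 to -0.43), with 0.12 (-0.05 to 0.29) under the inhibitor. ZNF611 was lower in sh-METTL3 and under the inhibitor, by -0.23 (-0.43 to -0.04) and -0.26 (-0.45 to -0.06). ZNF587, which acts on endogenous retroviruses, was at 0.04 and -0.15, and ZNF765, which binds LINE-1 elements, was at 0.01 and 0.11.

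**Figure D5:**
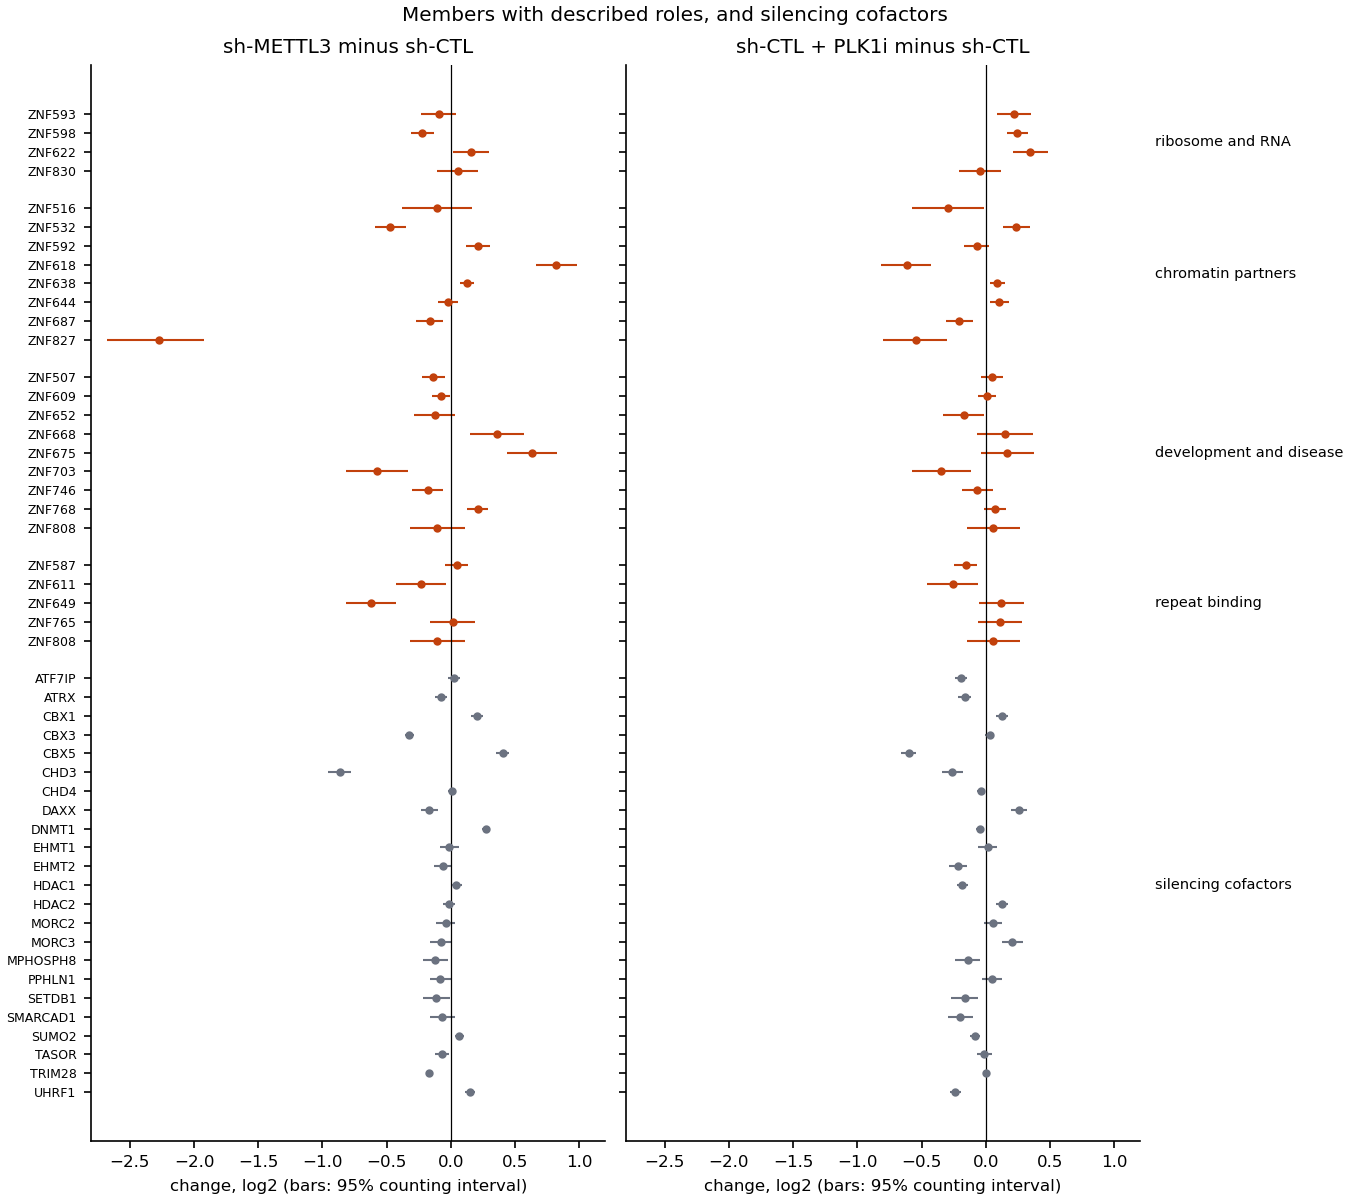
Change (log2) with its 95% counting interval for members with described roles (orange) and for silencing cofactors (grey), in sh-METTL3 (left) and sh-CTL + PLK1i (right). ZNF827 at -2.28 and ZNF618 at 0.82 stand farthest from 0 among the members in sh-METTL3, and CHD3 at -0.87 among the cofactors.

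Silencing cofactors were taken as a chosen list, which is not the whole of what KRAB proteins act through. Its genes need not all act through KRAB proteins. All of its 23 genes were among the listed genes. 0 of them were 2-fold higher or lower in either comparison, beside 3.42% higher and 2.94% lower over all genes in sh-METTL3 and 1.39% and 1.13% under the inhibitor. Their counting intervals lay wholly above 0 in 5 and wholly below 0 in 9 in sh-METTL3, beside 27.1% and 28.2% of all genes. Under the inhibitor they did so in 4 and 13, beside 23.1% and 22.8% of all genes, at a median level far above that of the members. Their medians were -0.06 in sh-METTL3 and -0.04 under the inhibitor. TRIM28 had normalized counts of 26214, 23328 and 26234, with changes of -0.17 and 0.0011. SETDB1 had 1603, 1482 and 1432. In sh-METTL3 the cofactors farthest from 0 were the NuRD helicase CHD3 (-0.87, -0.96 to -0.78) and the HP1 genes CBX3 (-0.32) and CBX5 (0.40). CBX3 lies on chromosome 7. Under the inhibitor it was CBX5, at -0.60 (-0.66 to -0.54). The medians of the cofactors lay on the other side of 0 from that of the members in sh-METTL3, and on the same side under the inhibitor.

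Other zinc finger families were set beside the members. In METTL3-KD the 207 other numbered ZNF genes had a median of 0.07, with 125 above 0, which is close to the value of the members. Under the inhibitor they had 0.01, with 113 above 0, and the members had -0.03, with 85 of 199 above 0. In the other numbered genes 0 were at least 2-fold higher and 2 were at least 2-fold lower in sh-METTL3. The 37 ZBTB genes, which carry a BTB domain in place of the KRAB box, had 0.03 and -0.02. The 22 ZSCAN and ZKSCAN genes had 0.14 and 0.02. No test of these differences was possible with 1 library a group.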

How the data were processed

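RNA was extracted from MIAPaCa-2 cells with ISOGEN, and poly(A) libraries were made with a stranded TruSeq kit, 1 per group. The submitters' processing notes name FastQC 0.11.9, STAR 2.7.10, RSEM 1.3.3 and the build hg19, with no role or order given. The deposited log2 values were made by the authors from counts divided by a size factor, with 4 added. This was found from the values: the step of 1 read was 1.17, 0.927 and 0.921 normalized counts (size factors 0.858, 1.08 and 1.09), and 100% of the values checked, those under 2000 reads, were whole within 0.1 reads. Every listed gene reached a CPM of 0.503 in its highest library. Some symbols carried a gene ID, which was removed.

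A pseudocount of 1 replaced the deposited offset, and 2-fold differences were counted. With 1 library a group there was no test. Counting intervals (95%) and the floor of 3 reads cover counting error only, and PCR copies are not independent molecules. Positions, transcripts and coding frames were from GENCODE 44 on GRCh37 (14858 of 14949 IDs found), and promoters from RefSeq. The genes named were METTL3, PLK1, the 10 most abundant members, the 8 highest and 8 lowest changes per comparison with a mean of at least 50, the role lists, and cofactors with the larger changes. Members and lists were chosen with earlier results of these data known. Alternatives were other size factors, pseudocounts, filters, fold limits, clusters only and a GC and length trend. The arm split and the limit on unique share were chosen after seeing the data. Scripts used Python 3.11.15, numpy 2.4.6, scipy 1.17.1, pandas 2.3.3, matplotlib 3.10.9 and Biopython 1.88 and were tested on simulated data.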

Additional observations from a re-analysis of the deposited data

How the results depend on the processing

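The count of members at least 2-fold higher in sh-METTL3, 3 as reported, became 1 with a mean of at least 50, 0 with a mean of at least 200, 15 at 1.5-fold and 0 at 4-fold. The count at least 2-fold lower, also 3, became 1 with a mean of at least 200 and 8 at 1.5-fold. Under the inhibitor the count of 0 higher became 1 at 1.5-fold. The count of 0 lower became 1 with a pseudocount of 0.5, where ZNF608 passed the limit, and 4 at 1.5-fold. Stricter filters leave fewer genes and other limits move the call by construction. The other 109 counts and medians computed moved by less than their limit, which was 1.5-fold for a count. For a median it was the half-width of 0.20 or 0.21 given below. That is wider than the median of all members in either comparison, so the label says little and the ranges are given instead. The long-arm median of chromosome 19 under the inhibitor, 0.0036 in the main setting, ranged from -0.01 to 0.05 and so changed sign. None of the 840 values of single genes moved beyond its interval. The sign of ZNF609 and ZNF681 under the inhibitor, which were 0.0090 and -0.01 as reported, turned under upper-quartile factors and under the GC and length trend, respectively. The median of members ranged from 0.06 to 0.11 in sh-METTL3 and from -0.05 to -0.02 under the inhibitor. On the short arm of chromosome 19 it ranged from 0.29 to 0.40 and from -0.10 to -0.03, with 0.40 and -0.03 at a unique share of at least 95%. No paired analysis was possible because each group holds 1 library. For the same reason no replicate could be left out. At this depth the counting interval of a member had a median half-width of 0.20 in sh-METTL3 and 0.21 under the inhibitor. Members with many reads had narrower intervals. These widths cover counting error only, so they set no limit for detecting a difference between conditions.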
